A study of Mus musculus with 16 samples.

Results

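Gonadal white adipose tissue (gWAT) was compared between male Mboat7 ASKO mice, whose adipocytes lack Mboat7, and male Mboat7 flox/flox control mice (ASKO and flox/flox in the following), all kept on chow. Of the 16 mice of the series, the 8 fed chow were taken, 4 of each genotype, and the remaining 8 had been fed a high-fat diet (HFD). Both genotypes were on the C57BL/6J background and carried floxed Mboat7 alleles, and after 20 weeks on the diet the fat pad was taken from age-matched mice fasted for 4 h. The Cre recombinase of the Mboat7 ASKO mice is driven by the adiponectin promoter, which is active in adipocytes, so blood vessel, immune and stromal cells of the fat pad keep the gene. Each mouse gave 1 mRNA library, and the values are FPKM, which correct fragment numbers for exon length and for library size. The comparison asks which genes and which functions of adipose tissue differed with adipocyte Mboat7 on chow.

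MBOAT7 is an acyltransferase of the Lands cycle, the cycle in which phospholipases remove a fatty acid from a membrane phospholipid and acyltransferases put another in its place. It joins arachidonate to lysophosphatidylinositol (LPI) and so makes arachidonate-rich phosphatidylinositol (PI), the lipid from which phosphoinositide signals and part of the cell's free arachidonate come. In fat tissue, PI signalling carries the response to insulin, and LPI that is not acylated can leave the cell and act on the receptor GPR55.

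The libraries were shallow on the scale of the deposited values. Low FPKM values lay at steps, and taken as the value of 1 fragment these steps stood for 287000, 296000, 342000 and 362000 fragments in the flox/flox mice 0 to 3 and for 228000, 292000, 318000 and 329000 in the ASKO mice 0 to 3 (two-sided exact permutation test of genotype, p = 0.343). For a transcript of 1 kb, 1 fragment was worth 2.76 to 4.38 FPKM. The share of low values within 0.2 of whole steps ran from 53.2% to 80.2% over the mice. The step of each mouse was fitted to these same values, so this share is not a test of it. Values of a few FPKM thus rested on a handful of fragments, and a listed 0 says only that no fragment was counted. The 10 genes highest in a mouse took 32.55% to 42.85% of its FPKM sum. Of the 10 genes highest on average over the 16 mice, only Fabp4, Gm5148 and Gm20721 are annotated as protein coding.

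Tissue identity was checked with adipocyte markers, and all 21 listed markers were above the filter of 1 FPKM in at least 4 of the 8 mice. Fabp4, the fatty acid carrier of adipocytes, stood at 7641, 11820, 10710 and 7543 FPKM in the flox/flox mice (given here and in the following in the order of mice 0 to 3) and at 6522, 9235, 22040 and 7983 FPKM in the ASKO mice, so the groups overlapped and ASKO mouse 2 was the highest. Adipoq, which encodes adiponectin and whose promoter drives the Cre, was at 987, 1871, 1448 and 1351 FPKM in the flox/flox mice and at 679, 1226, 961 and 1379 FPKM in the ASKO mice. Its log2 difference was -0.43 ± 0.30 (SE, 4 mice against 4, exact permutation test, p = 0.171), a gap within the spread of the mice. Here and below, differences are ASKO minus flox/flox on log2(FPKM + 1), a scale that shrinks the change of genes with low values. Leptin (Lep), the satiety hormone of fat, was at 103, 181, 159 and 174 FPKM in the flox/flox mice and at 72.7, 209, 179 and 133 FPKM in the ASKO mice, a difference of -0.13 ± 0.36 (p = 0.714 by the exact permutation test) that turned to 0.18 without ASKO mouse 0, the lowest of the 8. Adipsin (Cfd), a complement protease secreted by adipocytes, was at 864, 2595, 941 and 1468 FPKM in the flox/flox and 1022, 1129, 1680 and 1989 FPKM in the ASKO mice, with flox/flox mouse 1 above all others. Its difference of 0.08 turned to -0.13 with quantile normalization and to -0.13, -0.09, -0.01 and -0.09 without flox/flox mouse 0, flox/flox mouse 2, ASKO mouse 2 and ASKO mouse 3. Of the 21 adipocyte markers, 10 were higher and 11 lower in the ASKO mice, with a median difference of -0.10, beside -0.01 over all 10196 genes tested. The split was near even only on the deposited scale, with 7, 8 and 6 higher and medians of -0.23, -0.19 and -0.25 with quantile normalization, upper-quartile scaling and the sum without the 10 highest genes. Their sum was 13730, 21930, 17970 and 14920 FPKM in the flox/flox mice and 11750, 17050, 29760 and 16310 FPKM in the ASKO mice, highest in ASKO mouse 2 through Fabp4.

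ASKO mice 0 and 2 stood apart from the other 6 mice. On the first principal component, which held 22.3% of the variance, ASKO mouse 0 scored 91.2 and ASKO mouse 2 scored -77.7, while the flox/flox mice scored 37.6, -15.1, 0.3 and -10.1 and ASKO mice 1 and 3 scored -16.4 and -9.7. On the second component (16.9%), both were high, at 48.6 and 78.3, and the other 6 mice lay between -38.5 and 3.8. Genotype did not separate the mice on either component (exact permutation test, p = 0.8 and p = 0.314). Genes with the highest loadings were mostly short pseudogenes and small RNA genes whose values jumped between 0 and high FPKM from mouse to mouse. On the first component, Rpl38-ps2 was at 0, 0, 0 and 44.8 FPKM in the flox/flox mice and at 0, 55.3, 321 and 48.5 FPKM in the ASKO mice, and Tma7-ps at 128, 437, 231 and 402 FPKM in the flox/flox and 0, 405, 317 and 204 FPKM in the ASKO mice. On the second, Gm9806 was at 27.3, 211, 36.5 and 108 FPKM in the flox/flox and 11.01, 0, 0 and 141 FPKM in the ASKO mice, and Crip1, which encodes a small LIM-domain protein, at 0, 14.9, 0 and 0 FPKM in the flox/flox and 36.3, 76.3, 237 and 0 FPKM in the ASKO mice. The remaining genes with high loadings were Gm44335, Gm24157, Gm4604, Gm14706, Gm16116, Gm6293, Gm6654, Itpa-ps1, Serf1, Gm44126 and Gm42573.

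Transcript length moved with these mice too. Among coding genes under 1000 bases (331 genes), the mean log2 deviation from the average of the 8 mice was -0.391, 0.231, -0.0470 and 0.148 in the flox/flox mice and -0.584, 0.140, 0.393 and 0.109 in the ASKO mice, lowest in ASKO mouse 0 and highest in ASKO mouse 2 (genotype, exact permutation test, p = 0.971). Coding genes over 4000 bases (3082 genes) ran the other way in these mice, with 0.146 in ASKO mouse 0 and -0.215 in ASKO mouse 2. Flox/flox mouse 0, at 0.142, was close to ASKO mouse 0. Ribosomal protein genes, which are short, summed to 2212, 3760, 2682 and 3207 FPKM in the flox/flox mice and to 2041, 3357, 5063 and 3171 FPKM in the ASKO mice, again with ASKO mouse 2 on top. The part of transcript length in the results that follow was not tested.

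**Figure D1:**
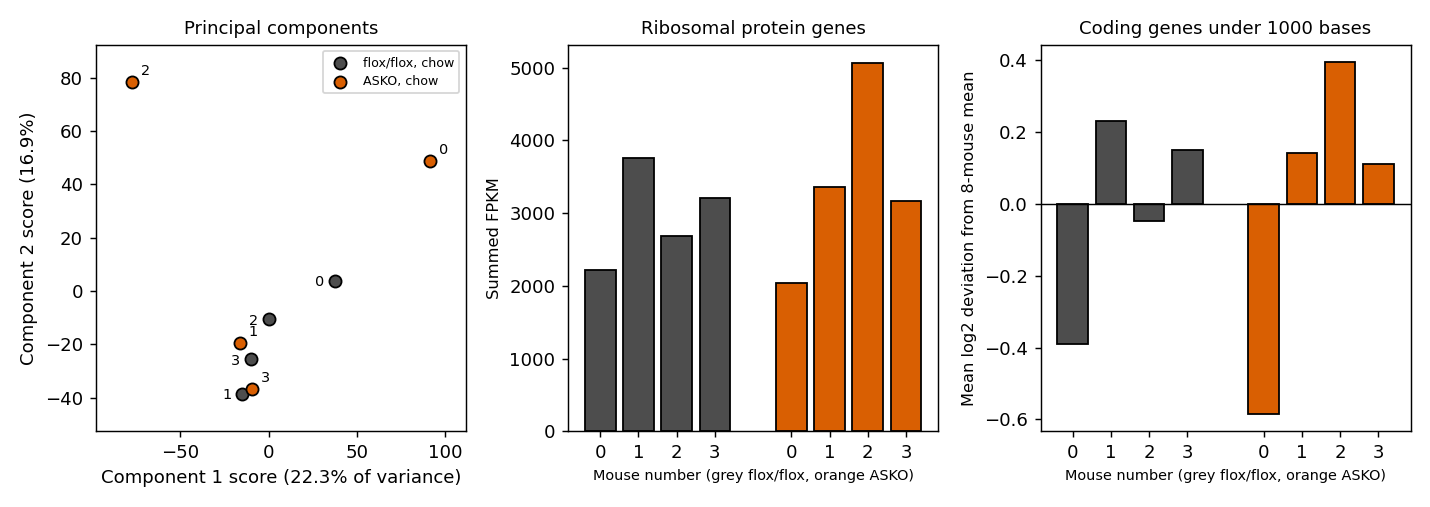
Left, scores of the 8 chow mice on the first (x axis, 22.3% of the variance) and second (y axis, 16.9%) principal components of log2(FPKM + 1), with 1 point per mouse labelled by its number, grey for flox/flox and orange for ASKO. Middle and right, 1 bar per mouse for the summed FPKM of ribosomal protein genes and for the mean log2 deviation of coding genes under 1000 bases, with ASKO mouse 2 the highest in both and ASKO mouse 0 the lowest.

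Mboat7 itself (ENSMUSG00000035596.14, chromosome 7 from 3677789 to 3701024 of mm10) was low in whole gWAT. It was at 2.42, 4.33, 0.902 and 4.99 FPKM in the flox/flox mice and at 0, 1.39, 0 and 2.89 FPKM in the ASKO mice. Every flox/flox mouse had a value above 0, ASKO mice 0 and 2 were listed at 0, and ASKO mice 1 and 3 lay inside the range of the flox/flox mice. The difference was -1.12 ± 0.62 and was not larger than the spread between mice (two-sided exact permutation test, p = 0.143, where 0.0286 is the smallest p that 4 mice against 4 allow). The highest Mboat7 value stood for about 6 fragments by that mouse's step, and at this depth the level of the gene itself did not show its loss in adipocytes. By immunoblot, the authors reported reduced MBOAT7 protein in the gWAT of chow-fed ASKO mice, a measure of protein rather than RNA. ASKO mice 0 and 2, the mice listed at 0, are the ones that stand apart on the components, and without either of them the difference was -0.85. On HFD, Mboat7 was at 0, 0, 2.15 and 1.61 FPKM in the flox/flox and 1.14, 0, 2.601 and 0 FPKM in the ASKO mice, a difference of -0.02, so the lower level was not seen there. In bulk tissue, fewer cells of a type and less RNA per cell cannot be told apart, and Mboat7 RNA of other cells is counted with that of adipocytes. Exons of Mboat7 overlap those of Tsen34, a tRNA splicing gene on the opposite strand with 11.8 to 44.5 FPKM. The library kit was directional but use of the strand in counting is not stated, so the Mboat7 values are uncertain for this reason too.

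Acyltransferases of the Lands cycle and of phosphatidic acid synthesis, a list that holds Mboat7 itself, showed no member past a test. Of the 16 listed, 15 were in the table and 10 were tested, of which 4 were higher and 6 lower in the ASKO mice. Their median difference was -0.12 (-0.33 to 0.20 on leaving out 1 mouse at a time, above 0 without 3 of the 8 mice, and -0.19 to -0.03 under the other scalings), and without Mboat7 it was -0.03 over 9 genes, 4 higher and 5 lower. Lpcat3, which puts arachidonate and linoleate into phosphatidylcholine, was at 4.62, 12.9, 7.92 and 7.28 FPKM in the flox/flox mice and at 13.6, 13.7, 5.43 and 24.5 FPKM in the ASKO mice, with ASKO mouse 2 inside the flox/flox range. That difference of 0.65 ± 0.51 did not exceed the spread (exact permutation test, p = 0.229), and Lpcat3 shares exon sequence with Emg1 on the opposite strand. Agpat2, the phosphatidic acid acyltransferase needed for fat storage, was the most abundant member, with 11.98, 23.9, 25.9 and 54.5 FPKM in the flox/flox mice and 45.98, 62.9, 36.9 and 52.6 FPKM in the ASKO mice. Flox/flox mouse 3 was above ASKO mice 0, 2 and 3, and the exons of Agpat2 overlap those of Egfl7.

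Phospholipases, which release LPI and free fatty acids from phospholipids, were lower in more members than higher. Of 13 tested, 4 were higher and 9 lower, the median was -0.32, and it kept its sign under every scaling tried and without any 1 mouse (-0.40 to -0.20, and -0.47 to -0.35 under the other scalings). None of these scalings moved the median of all genes upward, so they were hardly a test of a sign below 0. No member had an unadjusted p under 0.05 or groups without overlap. Pla2g4a, the cytosolic phospholipase that frees arachidonate, was at 2.19, 0.951, 1.95 and 5.14 FPKM in the flox/flox mice and at 1.45, 0, 2.31 and 1.81 FPKM in the ASKO mice, with overlapping groups. Its difference was -0.58 ± 0.56 (exact permutation test, p = 0.371) and ran from -0.82 to -0.20 on leaving out 1 mouse. Pla2g16, a phospholipase of the adipocyte, was the most abundant at 58.3 to 141 FPKM, and its groups overlapped. On HFD, the same 13 genes had a median of 0.13.

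PI synthesis and the phosphoinositide kinases and phosphatases were the largest set next to the deleted gene, with 43 of 67 listed genes tested. Of these, 17 were higher and 26 lower, with a median of -0.12 (-0.14 to -0.06 on leaving out 1 mouse) and no member past an unadjusted p of 0.05. With quantile normalization, 19 were higher and 24 lower (-0.04), and with the sum without the 10 highest genes 14 and 29 (-0.22). Inpp5e, a phosphoinositide phosphatase of the primary cilium, was the most abundant at 306 to 455 FPKM, but its exons overlap those of Pmpca. Enzymes of arachidonate and eicosanoid metabolism held 19 tested genes, 11 higher and 8 lower, with a median of 0.10 (-0.01 to 0.34 on leaving out 1 mouse). This median turned to -0.01 when FPKM was rescaled to the sum without the 10 highest genes. Their most abundant member was Ephx2, the soluble epoxide hydrolase, at 23.1 to 106 FPKM. The LPI receptor gene Gpr55 was listed at 0 in every chow mouse but ASKO mouse 1, which had 0.781 FPKM.

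**Figure D2:**
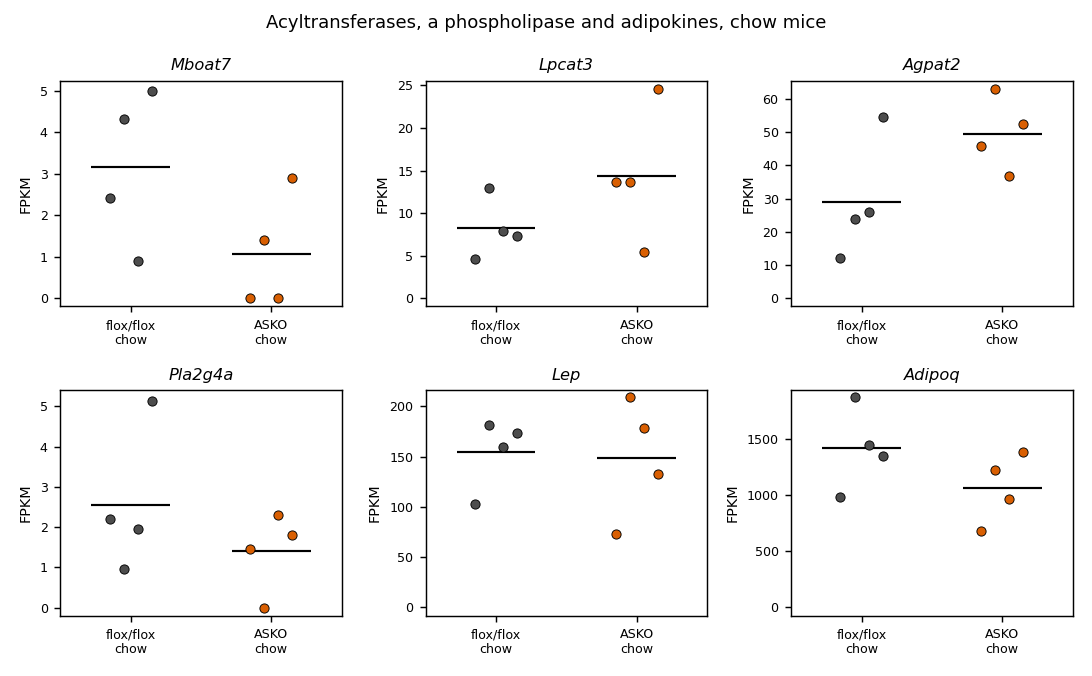
FPKM (y axis) of Mboat7, the acyltransferases Lpcat3 and Agpat2, the phospholipase Pla2g4a, Lep and Adipoq in flox/flox and ASKO mice on chow (x axis), with 1 point per mouse and a line at each group's mean. The groups overlap in each gene plotted, and ASKO mice 0 and 2 are at 0 for Mboat7.

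Across the transcriptome, 10196 of 19353 genes in the table had at least 1 FPKM in at least 4 of the 8 mice and were tested with limma. Past an adjusted p of 0.05 and an absolute log2 difference of 0.5 were 5 genes, of which 4 (0.0392% of the genes tested) were higher and 1 (0.00981%) was lower in the ASKO mice. At an unadjusted p under 0.05, 208 genes (2.04%) were higher and 200 (1.96%) lower, together 408 genes or 4.0%, which is below the 5% that the limit itself stands for. All ASKO mice lay above all flox/flox mice for 128 genes (1.26%) and below them for 138 genes (1.35%). With upper-quartile scaling the genes without overlap split into 102 higher and 179 lower, and with FPKM rescaled to the sum without the 10 highest genes they split into 85 and 218. That rescaling, which moved the median of all genes to -0.13, also gave 151 higher and 291 lower at an unadjusted p under 0.05. The balance between higher and lower genes thus changed with the scaling. Without ASKO mice 0 and 2, a choice made after seeing the data, 2 genes were past the limits, 1 of them among the 5, 230 genes were higher and 281 lower at an unadjusted p under 0.05, and without ASKO mouse 0 alone the lower genes came to 311.

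The 5 genes past the limits are all genes that the table lists at 0 in every mouse of 1 genotype. Across all tested genes, 28 (0.275%) had such a group, and 5 of the 28 passed. The filter admits such a gene only if all 4 mice of the other genotype are at 1 FPKM or more, so it also fixes that the 28 are without overlap (10.5% of the 266), and the called genes were tested through the group in which they were high. Tceb2 (ENSMUSG00000055839.5, chromosome 17 from 23803187 to 23829109), also called Elob, encodes elongin B, a subunit of ubiquitin ligase and transcription elongation complexes. It was listed at 0 in the 4 flox/flox mice and at 13.5, 32.7, 14.7 and 44.04 FPKM in the ASKO mice (limma, adjusted p = 0.017). Med21 (ENSMUSG00000030291.12, chromosome 6 from 146642547 to 146650602), a subunit of the Mediator complex of transcription, was listed at 0 in the flox/flox mice and at 8.53, 15.7, 11.1 and 5.54 FPKM in the ASKO mice (adjusted p = 0.0471). Higher in the same way were the processed pseudogenes Gm12918 (ENSMUSG00000066315.9, chromosome 4 from 10848420 to 10849055), with 19.7, 10.4, 6.13 and 10.03 FPKM in the ASKO mice, and Rpl9-ps8 (ENSMUSG00000105045.1, chromosome 3 from 144625403 to 144625964), with 18.5, 6.63, 7.89 and 21.6 FPKM (adjusted p = 0.0471 for both). In the other direction, Hist1h3c (ENSMUSG00000069310.3, chromosome 13 from 23745013 to 23745501), a replication-dependent histone H3 gene, was at 14.7, 25.3, 15.3 and 19.1 FPKM in the flox/flox mice and listed at 0 in the 4 ASKO mice (adjusted p = 0.0157).

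Few fragments lay behind these calls, at most 8 in any mouse for Tceb2 and Med21, 5 for Hist1h3c, 4 for Rpl9-ps8 and 3 for Gm12918. Exons of Med21 overlap those of Gm6654 and Tm7sf3 on the opposite strand. Gm6654 was at 86.3, 49.2, 20.8 and 39.1 FPKM in the flox/flox mice and at 0, 72.8, 0 and 22.5 FPKM in the ASKO mice. Tceb2 overlaps Srrm2, which was at most 2.79 FPKM. On HFD, Tceb2 was at 19.5, 0, 18.4 and 17.6 FPKM in the flox/flox mice and at 8.98, 61.3, 23.5 and 84.7 FPKM in the ASKO mice, so both genotypes had the transcript there. Hist1h3c was listed at 0 in 7 of the 8 HFD mice and at 24.8 FPKM in ASKO mouse 3. Leaving out any of the 4 flox/flox mice or ASKO mouse 3 left 0 genes past the limits by limma, with 422, 407, 378, 398 and 481 genes at an unadjusted p under 0.05. Without ASKO mouse 0, 1 or 2, there were 2, 2 and 3 genes, of which 2, 1 and 2 were among the 5. Over 20 alternatives the adjusted p ran from 0.00657 to 0.242 for Tceb2, 0.00352 to 0.242 for Hist1h3c, 0.0185 to 0.719 for Med21, 0.0185 to 0.643 for Gm12918 and 0.0214 to 0.643 for Rpl9-ps8.

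**Figure D3:**
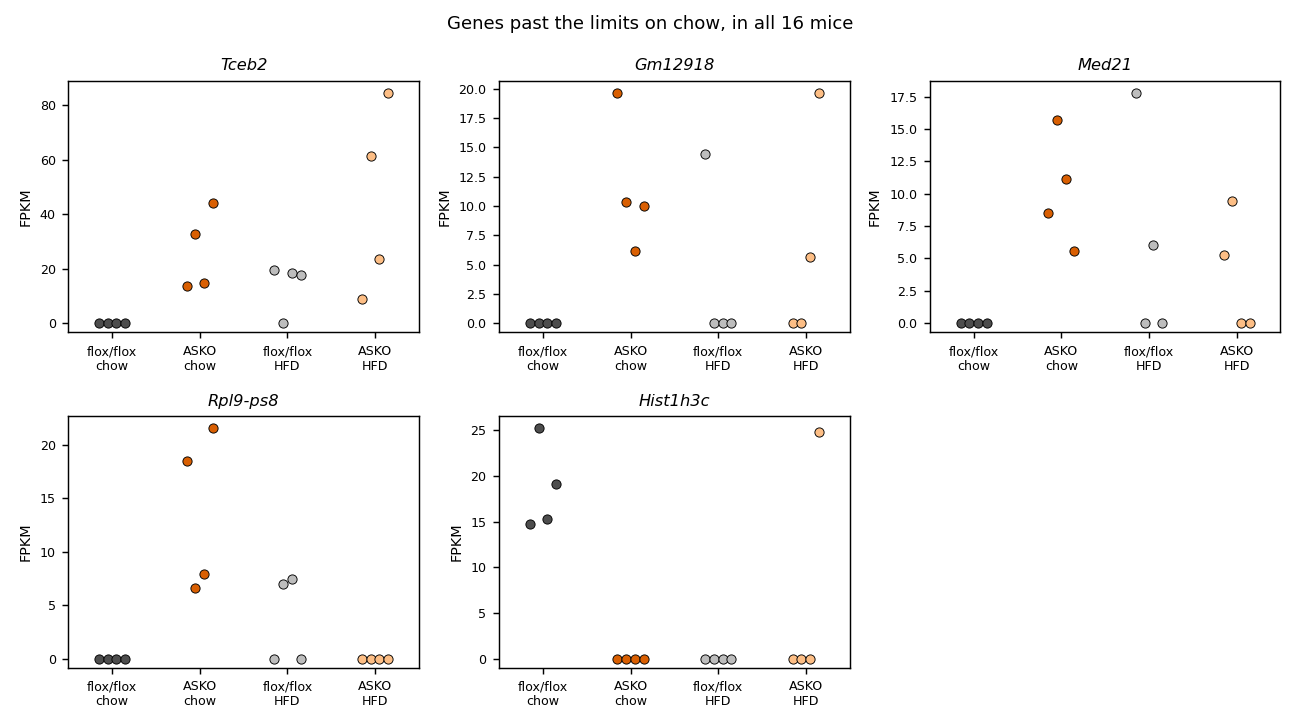
FPKM (y axis) of the 5 genes past the limits in each mouse of the 4 groups (flox/flox and ASKO, on chow and on HFD), with 1 point per mouse. On chow, a whole genotype is listed at 0 for each gene, and on HFD the groups overlap.

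Next to the called genes, 8 genes are named that were higher in every ASKO mouse and missed the limits. They have the lowest p of such genes with a mean of at least 5 FPKM. The lowest adjusted p of these 8 was that of Mcee (limma, adjusted p = 0.415), which encodes methylmalonyl-CoA epimerase, an enzyme on the path from odd-chain fatty acids and branched-chain amino acids to succinyl-CoA. It was at 0, 0, 3.99 and 0 FPKM in the flox/flox mice and at 10.2, 23.8, 32.3 and 9.48 FPKM in the ASKO mice, and its chow difference of 3.56 stood beside 0.05 on HFD. Mt1, which encodes the metal-binding protein metallothionein, was at 0, 0, 8.97 and 0 FPKM in the flox/flox mice and at 13.95, 26.2, 16.98 and 14.9 FPKM in the ASKO mice (difference 3.38 ± 0.76). Cyp8b1, known as the sterol hydroxylase of bile acid synthesis in liver, was at 3.25, 1.92, 2.49 and 3.23 FPKM in the flox/flox mice and at 20.6, 9.24, 8.93 and 11.5 FPKM in the ASKO mice (1.81 ± 0.45). These 3 genes were low in the control tissue, where single fragments set the value.

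Aimp2 had at least about 8 fragments in every mouse. Aimp2, a scaffold of the aminoacyl-tRNA synthetase complex, averaged 25.9 ± 4.95 FPKM in the flox/flox mice and 64.4 ± 10.8 FPKM in the ASKO mice (SD, n = 4 each), with 30.9, 26.3, 19.1 and 27.4 FPKM in the single flox/flox and 74.1, 68.5, 48.95 and 66.2 FPKM in the single ASKO mice. The lowest ASKO mouse was above the highest flox/flox mouse, the difference was 1.28 ± 0.30 (limma, adjusted p = 0.638), and on HFD it was -0.04. Aimp2 overlaps Eif2ak1, whose own level of 70.9 to 181 FPKM was highest in ASKO mouse 2. Psmb1, a subunit of the proteasome core with about 2 fragments in its lowest mice, was at 3.95, 3.86, 14.4 and 13.6 FPKM in the flox/flox mice and at 30.9, 39.3, 27.96 and 18.3 FPKM in the ASKO mice (1.76 ± 0.50, adjusted p = 0.958). The other 3 of the 8 were the pseudogene Gm7393 and the antisense transcripts Gm42722 and Gm17080, which overlap Wdr27, Chil5 and Slc29a1. Gm7393 was at 0, 0, 4.98 and 0 FPKM in the flox/flox and 16.4, 6.29, 11.2 and 30.5 FPKM in the ASKO mice (3.25 ± 0.73), Gm42722 at 3.62, 3.49, 0 and 2.74 FPKM in the flox/flox and 24.3, 12.96, 19.7 and 8.86 FPKM in the ASKO mice (2.47 ± 0.61) and Gm17080 at 57.8, 29.1, 16.5 and 18.01 FPKM in the flox/flox and 76.7, 65.7, 99.9 and 61.8 FPKM in the ASKO mice (1.45 ± 0.41). For each gene without overlap, named here and below, the exact permutation p is 0.0286, which that separation fixes.

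Lower in every ASKO mouse were, by the same rule and beside Hist1h3c, 11 genes that missed the limits. The gene 2010107E04Rik, which encodes a small mitochondrial protein of the ATP synthase and is also called Atp5mpl, was at 27.9, 37.8, 35.2 and 32.1 FPKM in the flox/flox mice and at 0, 12.5, 0 and 0 FPKM in the ASKO mice (difference -4.15 ± 0.81, limma, adjusted p = 0.415). Without ASKO mouse 1, the only ASKO mouse above 0 for it, 2010107E04Rik passed the limits. Gamt, the enzyme that completes creatine synthesis, was at 12.5, 19.8, 21.3 and 20.1 FPKM in the flox/flox mice and at 0, 4.93, 0 and 4.77 FPKM in the ASKO mice (-2.98 ± 0.69, adjusted p = 0.638). Srpr, the receptor that docks ribosomes at the endoplasmic reticulum, was at 24.96, 16.4, 13.9 and 25.3 FPKM in the flox/flox and 5.84, 5.54, 3.94 and 6.78 FPKM in the ASKO mice (-1.67 ± 0.39, adjusted p = 0.638). None of the 3 kept its direction on HFD, where the differences were 1.37, 0.34 and 0.52. Exons of Srpr overlap those of Fam118b and Tirap.

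Among genes of signalling and membrane traffic, Rab28, a small GTPase, was at 24.3, 39.1, 28.4 and 11.3 FPKM in the flox/flox mice and at 3.03, 5.87, 10.2 and 3.68 FPKM in the ASKO mice (-2.0 ± 0.50). Dusp4, a phosphatase that switches off MAP kinases, was at 7.31, 12.7, 15.3 and 7.45 FPKM in the flox/flox and 4.55, 3.03, 1.86 and 2.94 FPKM in the ASKO mice (-1.49 ± 0.46). Atg12, the ubiquitin-like protein of autophagosome formation, was at 5.91, 9.06, 20.4 and 7.58 FPKM in the flox/flox and 3.75, 2.302, 0 and 1.16 FPKM in the ASKO mice (-2.14 ± 0.62). In each of these, flox/flox and ASKO mice did not overlap, yet the adjusted p was 0.69, 0.998 and 0.958. The remaining lower genes were Cdadc1, the pseudogene Gm8822, Tspan5, Mier1 and Tm2d2.

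Cdadc1, a cytidine deaminase gene that overlaps Cab39l, was at 10.1, 9.47, 28.3 and 26.03 FPKM in the flox/flox and 6.66, 2.16, 3.34 and 4.11 FPKM in the ASKO mice (-1.86 ± 0.52). Gm8822 was at 12.1, 11.3, 9.499 and 16.8 FPKM in the flox/flox and 3.97, 3.31, 4.99 and 3.42 FPKM in the ASKO mice (-1.43 ± 0.41). Tspan5, a tetraspanin of membrane domains, was at 9.74, 9.15, 5.61 and 10.7 FPKM in the flox/flox and 0, 3.095, 3.14 and 3.05 FPKM in the ASKO mice (-1.74 ± 0.58). The lowest chow value above 0 stood for about 2 fragments in Cdadc1 and Gm8822, near the floor of detection, and for about 6 in Tspan5. Equally near the floor were 2010107E04Rik, Rab28, Dusp4 and Atg12 with about 2 fragments, and Gamt and Tm2d2 with about 1. For Srpr it was about 4 and for Mier1 about 8. Mier1, a transcriptional corepressor that overlaps Wdr78, was at 15.01, 21.4, 19.5 and 13.1 FPKM in the flox/flox and 7.18, 9.07, 5.78 and 7.78 FPKM in the ASKO mice (-1.10 ± 0.37), and the membrane protein gene Tm2d2 at 11.8, 19.8, 11.7 and 11.1 FPKM in the flox/flox and 3.73, 6.33, 4.48 and 6.55 FPKM in the ASKO mice (-1.21 ± 0.41). These 8 higher and 11 lower genes had adjusted p-values from 0.415 to 0.998 by limma.

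Function groups were described with 28 lists, which hold 554 tested genes. Of these genes, 286 were higher and 268 lower in the ASKO mice with a median of 0.02, and 10 were higher and 3 lower at an unadjusted p under 0.05 (2.35%, beside 4.0% of all tested genes). Groups did not overlap for 5 higher and 7 lower genes (2.17%, beside 2.61%). List medians were above 0 in 16 lists and below 0 in 12, and 23 of the 28 lay within 0.2 of 0. A median changed sign under another scaling (quantile, upper-quartile, or sum without the 10 highest genes) in 10 lists and on leaving out 1 mouse in 19, and 9 kept their sign throughout. Those 9 were sterol synthesis, phospholipases, PI and phosphoinositide enzymes, fatty acid oxidation, secreted adipocyte proteins, adipogenic transcription factors, branched-chain amino acid catabolism, adipose expansion markers and antigen presentation. Under these scalings the median of all genes was -0.01, -0.07 and -0.13, beside -0.01 with the deposited values. The 10 lists that changed sign under a scaling all had medians above 0. For lists below 0 the scalings were hardly a test of sign, and of the 9 only sterol synthesis, secreted adipocyte proteins and antigen presentation were above 0.

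**Figure D4:**
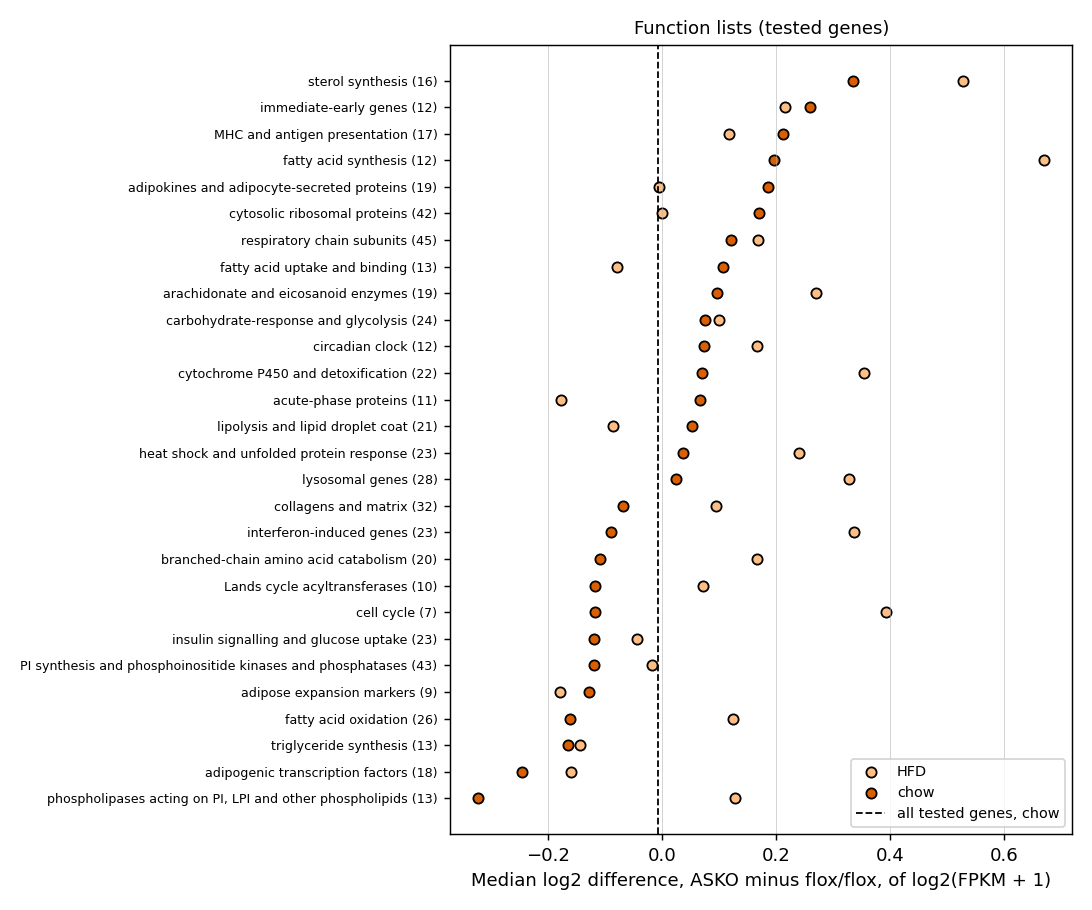
Median log2 difference, ASKO minus flox/flox on log2(FPKM + 1), of the tested members of each function list (x axis) on chow and on HFD, with 1 line of the plot per list, 1 point per diet and a dashed line at the chow median of all tested genes. Most chow medians lie within 0.2 of 0, and sterol synthesis has the highest at 0.34.

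Sterol synthesis had the highest median of the function lists. Of 16 tested genes, 13 were higher and 3 lower, with a median of 0.34 that ran from 0.28 to 0.50 on leaving out 1 mouse, and the count of 13 held under each scaling, with lower medians of 0.26, 0.26 and 0.20 with quantile normalization, upper-quartile scaling and the sum without the 10 highest genes. Summed over the list, the level was 488, 437, 542 and 518 FPKM in the flox/flox mice and 624, 688, 759 and 562 FPKM in the ASKO mice, so every ASKO mouse was above every flox/flox mouse. This separation did not hold for the rest of the list, since without Fdft1 the sums were 133.6, 164.6, 250.2 and 224.5 FPKM in the flox/flox and 230.8, 356.1, 275.3 and 191.2 FPKM in the ASKO mice, with overlap. The largest part of the full sum was Fdft1, squalene synthase, at 355, 273, 291 and 294 FPKM in the flox/flox mice and 394, 332, 484 and 370.3 FPKM in the ASKO mice, and Fdft1 overlaps the cathepsin gene Ctsb on the opposite strand. Msmo1, a methylsterol oxidase, was the list's only gene at an unadjusted p under 0.05, with 0, 0, 4.44 and 0 FPKM in the flox/flox mice and 2.28, 4.14, 8.01 and 8.78 FPKM in the ASKO mice. Its difference was 2.02 ± 0.68 (limma, adjusted p = 0.998). On HFD, the 16 genes had a median of 0.53.

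Fatty acid synthesis was carried by Scd1, the stearoyl-CoA desaturase, at 2659, 4224, 2729 and 3182 FPKM in the flox/flox mice and 4264, 5689, 2396 and 5294 FPKM in the ASKO mice. ASKO mice 0, 1 and 3 exceeded every flox/flox mouse, while ASKO mouse 2 was the lowest of the 8. Over the list, 8 of 12 genes were higher, with a median of 0.20 (-0.12 to 0.37 on leaving out 1 mouse, 0.04 to 0.12 under the other scalings). The count was 6 of 12 with the sum without the 10 highest genes. Triglyceride synthesis had 6 of 13 genes higher and a median of -0.16 (-0.21 to 0.07 on leaving out 1 mouse, -0.32 to -0.23 under the other scalings). Its most abundant member Pck1, which supplies glycerol for fat storage, was at 207 to 488 FPKM. No gene of these lists had an unadjusted p under 0.05.

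Lipid droplet coat and lipolysis genes numbered 21 tested, 13 higher and 8 lower, with a median of 0.05 that was below 0 under each of the other scalings (-0.02, -0.03 and -0.10). Cidec, the droplet fusion protein of white fat, was the most abundant at 409 to 1006 FPKM. Plin4, a droplet coat protein, was higher in every ASKO mouse, with 9.61, 6.37, 12.2 and 11.4 FPKM in the flox/flox mice and 20.99, 12.6, 13.8 and 12.6 FPKM in the ASKO mice (0.56 ± 0.39). Prkar2b, the regulatory subunit through which cyclic AMP controls protein kinase A in fat, was lower in every ASKO mouse, with 133, 139.6, 138 and 159 FPKM in the flox/flox and 105, 129.7, 61.4 and 117 FPKM in the ASKO mice (-0.51 ± 0.29). Plin4 overlaps Hdgfl2, and both genes had an adjusted p of 0.998 by limma. The HFD differences of these genes had the opposite sign, -0.52 for Plin4 and 0.33 for Prkar2b.

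Fatty acid uptake and binding genes had 8 of 13 members higher and a median of 0.11, which was -0.01 with quantile normalization (6 higher and 7 lower) and -0.05 with the sum without the 10 highest genes (3 higher and 10 lower). Fabp4 was the most abundant of them. Vldlr, a receptor for triglyceride-rich lipoproteins, was lower in every ASKO mouse, at 10.2, 9.42, 7.36 and 8.61 FPKM in the flox/flox mice and 4.695, 6.35, 6.59 and 2.36 FPKM in the ASKO mice (-0.78 ± 0.44, limma, adjusted p = 0.998). Fatty acid oxidation had 11 of 26 genes higher and a median of -0.16 (-0.21 to 0.00 on leaving out 1 mouse, -0.32 to -0.22 under the other scalings), with Acadm, the medium-chain acyl-CoA dehydrogenase, the most abundant at 116 to 242 FPKM. Branched-chain amino acid catabolism had all 20 genes of its list in the table tested, 8 higher and 12 lower, with a median of -0.11 (5, 4 and 2 higher and medians of -0.20, -0.19 and -0.26 under the other scalings, in the order given before) and Pccb at 67.5 to 154 FPKM as its most abundant member. Neither list held a gene at an unadjusted p under 0.05 or without overlap.

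Respiratory chain subunits had 3 of 45 members at an unadjusted p under 0.05 (6.67%, beside 4.0% of all tested genes), all higher. Ndufv1, a flavoprotein of complex I, was at 23.4, 22.2, 20.1 and 19.3 FPKM in the flox/flox mice and at 30.9, 59.1, 54.3 and 27.4 FPKM in the ASKO mice (0.91 ± 0.35). Cox5b, a subunit of complex IV, was at 21.6, 39.6, 54.2 and 28.9 FPKM in the flox/flox and 55.6, 85.9, 63.7 and 55.4 FPKM in the ASKO mice (0.89 ± 0.35). For both, the groups did not overlap. Cox6c, also of complex IV, was at 71.7, 43.4, 45.4 and 59.6 FPKM in the flox/flox and 91.8, 94.1, 103 and 65.9 FPKM in the ASKO mice (0.69 ± 0.29), with flox/flox mouse 0 above ASKO mouse 3. The adjusted p was 0.998 for each. The most abundant member was Atp5b, of the ATP synthase, at 218 to 515 FPKM, and Cox6c overlaps Vps13b. Over the list, 27 genes were higher and 18 lower, with a median of 0.12 (-0.08 to 0.44 on leaving out 1 mouse). With the sum without the 10 highest genes, 20 were higher and 25 lower, and the median turned to -0.03. Many of these transcripts are short, and the list's sum of 1827, 3564, 2398 and 2951 FPKM in the flox/flox mice and 1865, 3823, 3828 and 3102 FPKM in the ASKO mice was low in mouse 0 of both genotypes, as the short genes were.

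Cytosolic ribosomal proteins had 26 of 42 genes higher and a median of 0.17 (-0.01 to 0.32 on leaving out 1 mouse), which was 0.05, 0.09 and 0.02 under the other scalings with 23, 23 and 22 higher. Rplp2, an acidic protein of the ribosomal stalk, was at 7.23, 20.7, 13.8 and 3.91 FPKM in the flox/flox mice and at 17.2, 21.2, 85.5 and 55.97 FPKM in the ASKO mice (1.82 ± 0.62, limma, adjusted p = 0.998), highest in ASKO mouse 2, while flox/flox mouse 1 was above ASKO mouse 0. The most abundant was Rpl13a at 209 to 729.6 FPKM. Glycolysis and carbohydrate-response genes had 14 of 24 members higher and a median of 0.08, below 0 under each of the other scalings (-0.08 at the lowest), with Aldoa the most abundant at 149 to 367 FPKM. Pfkm, the muscle-type phosphofructokinase, was at 0, 0, 0 and 4.16 FPKM in the flox/flox and 6.81, 2.48, 1.97 and 3.63 FPKM in the ASKO mice, and Pdha1, a subunit of pyruvate dehydrogenase, at 68.02, 72.7, 58.4 and 67.8 FPKM in the flox/flox and 43.4, 57.6, 56.98 and 46.5 FPKM in the ASKO mice. Pfkm, which overlaps Senp1, had a difference of 1.54 ± 0.65 with flox/flox mouse 3 inside the ASKO range, and Pdha1 was lower in every ASKO mouse with -0.38 ± 0.27. Exons of Pdha1 overlap those of Map3k15, which stood at 446 to 1006 FPKM, so the source of its fragments is uncertain.

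Secreted adipocyte proteins had 12 of 19 members higher and a median of 0.19, which was 0.05, 0.10 and 0.03 under the other scalings, and Cfd was the most abundant. Sfrp5, a Wnt antagonist released by fat that is also among the markers of adipose expansion, was at 0, 0, 9.09 and 2.14 FPKM in the flox/flox mice and at 4.89, 13, 15.5 and 15.3 FPKM in the ASKO mice. Flox/flox mouse 2 reached into the ASKO range, and the difference was 2.36 ± 0.78 (exact permutation test, p = 0.0571, limma, adjusted p = 0.998). Of the other adipose expansion markers, most were lower (7 of 9 on the list, median -0.13, -0.28 to -0.21 under the other scalings), with Nnat, an imprinted gene, the most abundant at 261 to 627 FPKM, though it overlaps the small RNA gene Gm23134. Adipogenic transcription factors had 5 of 18 members higher and 13 lower, with a median of -0.25 (-0.31 to -0.02 on leaving out 1 mouse, -0.37 to -0.25 under the other scalings), and no member at an unadjusted p under 0.05. Cebpa, a master regulator of adipocyte identity, was the most abundant of them at 51.3 to 115 FPKM.

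Insulin signalling and glucose uptake held 23 tested genes, 9 higher and 14 lower, with a median of -0.12 (-0.23 to 0.04 on leaving out 1 mouse, -0.26 to -0.12 under the other scalings) and none without overlap. Tsc2, a brake on mTORC1, was the most abundant at 64.5 to 178 FPKM, and its exons overlap those of Pkd1. The clock list had 6 of 12 genes higher and a median of 0.07 that turned to -0.07 with the sum without the 10 highest genes, and for 1 member past an unadjusted p of 0.05 no value is given. The clock repressor Nr1d1 was the most abundant at 22.2 to 51.7 FPKM, and overlaps Thra, which stood at 125 to 322 FPKM.

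Immediate-early and stress genes are lists that handling of the tissue can move. Immediate-early genes had the second-highest median of the function lists, with 8 of 12 members higher and 0.26 (-0.06 to 0.45 on leaving out 1 mouse, 0.16 to 0.26 under the other scalings), and their sum was 110.4, 139, 105 and 102 FPKM in the flox/flox mice and 233, 109, 100.3 and 143 FPKM in the ASKO mice, highest in ASKO mouse 0. Klf6 was the list's gene without overlap, at 18.9, 17.6, 17.1 and 16.8 FPKM in the flox/flox mice and 15.3, 11.4, 8 and 14.9 FPKM in the ASKO mice (-0.51 ± 0.36), and Maff was the most abundant at 11.9 to 36.03 FPKM. The heat shock and unfolded protein response had a median of 0.04, which turned to -0.05 with upper-quartile scaling and -0.11 with the sum without the 10 highest genes. Herpud1, a component of the degradation system of the endoplasmic reticulum, was at 0, 2.14, 4.36 and 1.94 FPKM in the flox/flox mice and at 2.46, 12.2, 6.06 and 8.65 FPKM in the ASKO mice (1.5 ± 0.65), with ASKO mouse 0 inside the flox/flox range, and the chaperone Hsp90ab1 was the most abundant at 234 to 372 FPKM.

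Immune function lists gave mixed members. Interferon-induced genes had 10 of 23 higher and a median of -0.09 (-0.14 to 0.03 on leaving out 1 mouse, -0.20 to -0.03 under the other scalings), with Ifi27 the most abundant at 119 to 588 FPKM. Antigen presentation had 11 of 17 higher and a median of 0.21 (0.02 to 0.34 on leaving out 1 mouse, 0.08 to 0.17 under the other scalings). B2m, the light chain of class I molecules, stood at 520.3 to 754 FPKM. H2-T23, a non-classical class I gene, was listed at 0, 0, 0 and 19.8 FPKM in the flox/flox mice and at 8.63, 29.5, 3.59 and 15.5 FPKM in the ASKO mice (2.52 ± 1.02, limma, adjusted p = 0.998), and flox/flox mouse 3 was above 3 of the ASKO mice. Acute-phase genes had a median of 0.07 (-0.01 with upper-quartile scaling and -0.08 with the sum without the 10 highest genes), Hp was the most abundant at 218 to 519 FPKM, and complement factor B (Cfb) was lower in every ASKO mouse, at 42.8, 35.5, 36.7 and 34.8 FPKM in the flox/flox and 25.7, 34.2, 25.6 and 34.02 FPKM in the ASKO mice. The gap for Cfb between the lowest flox/flox and the highest ASKO mouse was under 1 FPKM. Exons of Cfb overlap those of Gm20547 on the same strand, so the source of its fragments is uncertain. Gm20547 was at 12.3, 15.5, 0 and 0 FPKM in the flox/flox and 0, 3.13, 0 and 0 FPKM in the ASKO mice.

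Among the remaining lists, lysosomal genes were split 14 and 14 with a median of 0.02, below 0 under each of the other scalings (-0.13 at the lowest). Ctsa, the protective protein cathepsin A, was at 249.7, 309, 259 and 256 FPKM in the flox/flox mice and at 395, 344, 707 and 377 FPKM in the ASKO mice (0.70 ± 0.28, limma, adjusted p = 0.998). Every ASKO mouse was above every flox/flox mouse, and Ctsa overlaps Neurl2 and Pltp, so the source of these fragments is uncertain. Npc2, a sterol carrier of the lysosome, was the most abundant at 199 to 584 FPKM. Collagens and matrix had 12 of 32 genes higher, a median of -0.07 (-0.16 to 0.11 on leaving out 1 mouse, -0.20 to -0.08 under the other scalings) and Sparc at 243 to 400 FPKM. Mmp14, a membrane matrix protease, was at 2.52, 1.56, 3.93 and 9.05 FPKM in the flox/flox mice and at 1.603, 0, 1.02 and 0 FPKM in the ASKO mice (-1.60 ± 0.58), and ASKO mouse 0 was just above flox/flox mouse 1. Loxl1, a collagen and elastin crosslinker, was at 0, 0, 0.725 and 1.08 FPKM in the flox/flox and 1.25, 1.35, 1.32 and 1.32 FPKM in the ASKO mice, without overlap though at about 1 fragment.

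Cell cycle genes were mostly too low to test (7 of 23), with a median of -0.12 (-0.56 to 0.16 on leaving out 1 mouse, -0.16 to -0.10 under the other scalings). Mcm7, a helicase subunit of DNA replication that shares exons with Ap4m1 and Cops6, was at 7.64, 8.85, 7.69 and 13.6 FPKM in the flox/flox mice and at 4.04, 2.71, 4.45 and 0 FPKM in the ASKO mice (-1.68 ± 0.61). Ccna2 carried the list's sum at 64 to 192 FPKM, the highest in ASKO mouse 2, and overlaps Exosc9. Detoxification genes had 12 of 22 members higher and a median of 0.07 (-0.01 with upper-quartile scaling and -0.08 with the sum without the 10 highest genes), and Cyp2e1 was the most abundant at 455 to 1178 FPKM.

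Markers of the other cells of the fat pad were looked at with 19 further lists beside the adipocyte list. Over all 20 marker lists, 132 genes were tested, 64 higher and 68 lower with a median of -0.01. At an unadjusted p under 0.05, 4 were higher and 6 lower (7.58%, beside 4.0% of all tested genes), and groups did not overlap for 4 higher and 2 lower genes (4.55%, beside 2.61%). No marker passed the limits, though the endothelial marker Ramp2 did so without the intensity trend. For 1 of the lists no result is given.

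Mesothelial markers, from the sheet that covers the gonadal fat pad, had the lowest median of the lists with more than 3 tested genes, -0.62 over 11 of 19 markers, 3 higher and 8 lower. Their sum was 115, 124, 165 and 141 FPKM in the flox/flox mice and 112, 119, 77.7 and 113 FPKM in the ASKO mice, and the groups overlapped. Upk1b, a uroplakin of the mesothelium, was at 2.01, 1.803, 3.37 and 11.7 FPKM in the flox/flox mice and listed at 0 in the 4 ASKO mice (limma, adjusted p = 0.638). Of the defining markers, Msln was at 1.48, 3.55, 2.36 and 2.901 FPKM in the flox/flox and 9.598, 0, 3.803 and 6.67 FPKM in the ASKO mice, while Muc16, Bnc1 and Slurp1 were each at 0 in all but 1 mouse. The matrix gene Efemp1, which fibroblasts share, was the most abundant at 21.04 to 57.1 FPKM. On HFD, the median of the same markers was 0.19.

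Endothelial markers were split 9 and 9, with a median of 0.15 (0.02 to 0.18 under the other scalings). Their summed level was higher in every ASKO mouse, 119.7, 75.7, 109 and 103 FPKM in the flox/flox mice and 159.7, 186, 199 and 139 FPKM in the ASKO mice. Without Gpihbp1 the sums were 92.92, 69.93, 77.95 and 80.63 FPKM in the flox/flox and 145.1, 88.93, 107.1 and 83.19 FPKM in the ASKO mice, and flox/flox mouse 0 was above ASKO mice 1 and 3. Gpihbp1, which anchors lipoprotein lipase on capillaries, was the most abundant, at 26.7, 5.798, 31.3 and 21.9 FPKM in the flox/flox mice and 14.6, 96.5, 91.5 and 55.5 FPKM in the ASKO mice. Egfl7, an endothelial matrix protein, was at 2.81, 5.61, 5.68 and 0 FPKM in the flox/flox and 8.97, 8.42, 23.3 and 8.39 FPKM in the ASKO mice (1.75 ± 0.68) and overlaps Agpat2. Ramp2, the adrenomedullin receptor partner, was listed at 0 in the flox/flox mice and at 5.597, 4.35, 7.06 and 4.37 FPKM in the ASKO mice (limma, adjusted p = 0.111), and overlaps Vps25. Emcn and Esam, surface proteins of the endothelium, pointed the other way with overlapping groups. Emcn was at 5.45, 5.66, 2.32 and 8.799 FPKM in the flox/flox and 3.63, 0, 2.69 and 0 FPKM in the ASKO mice (-1.59 ± 0.66), and Esam at 1.73, 7.49, 2.79 and 3.16 FPKM in the flox/flox and 0, 1.81, 1.49 and 0 FPKM in the ASKO mice (-1.43 ± 0.57). Pecam1, a defining marker, was at 26.96, 10.5, 13.3 and 13.6 FPKM in the flox/flox mice and at 32.9, 16.7, 18.1 and 15.7 FPKM in the ASKO mice. The part of endothelial cell number in these values was not tested.

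Macrophage markers had 25 of 34 genes tested, 10 higher and 15 lower, a median of -0.09 (-0.22 to -0.05 under the other scalings), and sums of 437, 568, 375 and 479.9 FPKM in the flox/flox mice and 312, 486, 461 and 495 FPKM in the ASKO mice. Lyz2, the macrophage lysozyme, was the most abundant at 81.4 to 134 FPKM. The groups overlapped in each macrophage gene named here. Cd68, a lysosomal marker of macrophages, was at 3.72, 4, 8.06 and 3.32 FPKM in the flox/flox mice and at 3.85, 0, 0 and 13.2 FPKM in the ASKO mice (-0.94 ± 0.85, exact permutation test, p = 0.371). On leaving out 1 mouse, the Cd68 difference ran from -1.70 to -0.43. Clec7a, the beta-glucan receptor, was at 2.95, 1.24, 0 and 1.01 FPKM in the flox/flox and 1.99, 6.57, 3.51 and 2.13 FPKM in the ASKO mice (1.04 ± 0.57, exact permutation test, p = 0.0857). Itgax, which marks lipid-laden macrophages of obese fat, was under the filter, with 1 mouse above 0 in each genotype. On HFD, Itgax stood at 8.51, 26.3, 14.01 and 15.6 FPKM in the flox/flox mice and at 39.2, 37.8, 34.6 and 47.4 FPKM in the ASKO mice, all above the flox/flox mice. Ccr2, the receptor that brings monocytes into tissue, was at 5.08, 0.952, 7.37 and 5.45 FPKM in the flox/flox and 0, 0.811, 0 and 3.56 FPKM in the ASKO mice on chow (-1.57 ± 0.67).

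Other leukocyte lists rested on few genes. T and NK cell markers were near the floor, with Cd3d, Cd3g, Cd8a and Nkg7 listed at 0 in all 8 mice. Of the T and NK cell list, 3 of 22 genes were tested (median 0.32), Foxp3 was the most abundant at 26.7 to 66.6 FPKM, and the sum was 44.5, 61.6, 34.4 and 42.5 FPKM in the flox/flox and 48, 61.2, 69.95 and 50.1 FPKM in the ASKO mice. Exons of Foxp3 overlap those of Flicr, Ccdc22 and Ppp1r3f. Of the B and plasma cell list, 3 of 14 were tested (median 0.78), led by Ighm at 31.04 to 59.5 FPKM, with a sum of 65.7, 92, 33.1 and 77.2 FPKM in the flox/flox and 94.01, 96.3, 47.1 and 72 FPKM in the ASKO mice. Both sums overlapped between the genotypes.

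Dendritic cell markers had 4 of 10 genes tested with a median of 0.41, Clec9a at 8.13 to 37.1 FPKM and a sum of 34.6, 37.8, 18.1 and 24.96 FPKM in the flox/flox and 52.2, 46.2, 62.8 and 19.2 FPKM in the ASKO mice. Mast cell markers had 2 of 10 tested with a median of 0.47, Mcpt4 at 0 to 9.43 FPKM, Fcer1a listed at 0 in all 8 mice and a sum of 5.98, 8.39, 0 and 5.99 FPKM in the flox/flox and 19.9, 12.1, 7.03 and 18.6 FPKM in the ASKO mice. The 1 tested neutrophil marker of 10, Mmp9, was listed at 0 in the flox/flox mice and at 1.21, 1.15, 3.89 and 1.19 FPKM in the ASKO mice (limma, adjusted p = 0.998), while S100a8, Csf3r and Cxcr2 were listed at 0 in every chow mouse. Summed, neutrophil markers came to 0, 0, 0 and 8.18 FPKM in the flox/flox and 1.21, 1.15, 3.89 and 1.19 FPKM in the ASKO mice, with flox/flox mouse 3 on top, so the sum did not follow Mmp9.

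Lymph node genes had 1 of 7 tested, Cxcl13 at 0 to 8.4 FPKM (median 0.50), and summed to 1.08, 0.903, 5.16 and 7.78 FPKM in the flox/flox and 16.9, 20.8, 16.3 and 3.71 FPKM in the ASKO mice, where ASKO mice 0, 1 and 2 were the highest.

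Red cell transcripts differed between mice. Hbb-bs, a beta globin gene, was at 7.39, 7.695, 31.9 and 7.07 FPKM in the flox/flox mice and at 18.96, 37.3, 113 and 47.4 FPKM in the ASKO mice (1.94 ± 0.62, exact permutation test, p = 0.0571). The erythroid list (3 of 7 tested, median 0.37, Hbb-bs the most abundant) summed to 7.39, 36.5, 33.3 and 16.7 FPKM in the flox/flox mice and to 34.3, 39.1, 171 and 102 FPKM in the ASKO mice, highest in ASKO mice 2 and 3.

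Stromal, vessel wall and nerve markers were close to even. Fibroblast and progenitor markers had 19 of 27 tested, 10 higher, a median of 0.09 that turned to -0.03 with the sum without the 10 highest genes, and Gsn at 358 to 604 FPKM as the most abundant. Their sum was 821, 805, 761 and 983 FPKM in the flox/flox and 758, 869.9, 748 and 949 FPKM in the ASKO mice. Smooth muscle and pericyte markers had 6 of 14 tested with a median of -0.05, Tagln at 9.74 to 45.2 FPKM and a sum of 71.8, 73.9, 44.6 and 67.9 FPKM in the flox/flox and 137, 64.3, 76.4 and 55.4 FPKM in the ASKO mice, highest in ASKO mouse 0. Lymphatic markers had 2 of 8 tested (median -0.10, Pdpn 6.202 to 51.4 FPKM, Flt4 listed at 0 in all 8 mice) and a sum of 58.01, 18.6, 21.4 and 23.9 FPKM in the flox/flox and 43.6, 38.4, 38.1 and 11.8 FPKM in the ASKO mice. Schwann cell and nerve markers had 3 of 13 tested (median -0.05, Pmp22 34.5 to 121 FPKM) and a sum of 75.8, 123, 58.01 and 142 FPKM in the flox/flox and 97.7, 119, 61.03 and 76.3 FPKM in the ASKO mice. Each of these sums overlapped between the genotypes.

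Brown and beige markers were mostly near the floor, with Ucp1 listed at 0 in all 8 mice, Ebf2 at 0 to 6.51 FPKM and a median of -0.29 over 3 of 15 genes. Their sum was 6.85, 15.4, 30.02 and 4.79 FPKM in the flox/flox and 6.61, 10.7, 67.4 and 50.1 FPKM in the ASKO mice. Cox8b, a subunit of complex IV named after its values were seen and under the filter, carried the highest sums, with 0, 0, 15.6 and 0 FPKM in the flox/flox and 0, 0, 51.9 and 40.3 FPKM in the ASKO mice. Tissues next to the gonadal fat pad left little trace. Of 30 epididymis genes, 6 were in the table and 3 were tested (median 0.11, -0.01 with quantile normalization), and Adam7, Pate4 and Aqp9 were listed at 0 in all 8 mice. The epididymis sum of 289, 579.7, 357 and 358 FPKM in the flox/flox and 213, 597, 549 and 406 FPKM in the ASKO mice came mostly from Npc2, which many tissues express. Teddm2, which overlaps Glul, was at 4.52, 7.71, 4.74 and 1.698 FPKM in the flox/flox mice and at 0, 1.76, 0 and 0 FPKM in the ASKO mice (-2.02 ± 0.56), with ASKO mouse 1 just above flox/flox mouse 3.

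Testis genes had 2 of 15 tested (median 0.08, -0.04 with the sum without the 10 highest genes), led by Insl3 at 0 to 43.5 FPKM, with a sum of 28.1, 33.3, 15.1 and 4.22 FPKM in the flox/flox and 37.99, 1.29, 19 and 51.2 FPKM in the ASKO mice. Insl3 overlaps Jak3 on the same strand, which was at most 1.55 FPKM on chow. Skeletal muscle genes had 3 of 20 tested (median 0.18), led by Myl1 at 0 to 24.3 FPKM, with a sum of 28.4, 20.8, 11.9 and 0.378 FPKM in the flox/flox and 15.98, 19.04, 36.04 and 14.3 FPKM in the ASKO mice. Both sums varied more within a genotype than between them, and the part of cell type amounts in the results was not tested.

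The chow difference was then set beside the HFD difference in the other 8 mice, to ask whether the genotype acted differently on the diets. The test of this was the interaction of genotype and diet, and by limma 0 of the 10196 genes (0.0%) passed an adjusted p of 0.05, with 0.314 the lowest adjusted p, while 665 (6.52%) had an unadjusted p under 0.05. Among the same genes, the genotype difference on HFD itself passed an adjusted p of 0.05 in 0 genes by limma and an unadjusted p under 0.05 in 492 (4.83%). These genes were filtered on the chow mice, so genes low on chow, such as Itgax, were not tested on HFD or for the interaction. The authors, with their own test on the reads, reported genes that differed with genotype on HFD, among them higher Cd68, Itgax and Clec7a. That test was not repeated here. Of the 266 genes without overlap on chow, 108 (40.6%) had the same direction on HFD, beside 44.6% of all tested genes.

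Groups without overlap on both diets were found for 9 genes, 0.0883% of the genes tested, which are named here after their values were seen. They are 3.38% of the 266 genes without overlap on chow, beside 3.7% of all tested genes that were without overlap on HFD (184 higher and 193 lower). Gm14257, an antisense transcript, and Tmcc1, a membrane protein of the endoplasmic reticulum, were higher in the ASKO mice on both. Gm14257 was at 10.7, 0, 8.55 and 12.7 FPKM in the flox/flox mice and at 26.7, 13.1, 17.4 and 28.1 FPKM in the ASKO mice on chow, while the HFD values were 3.76, 8.297, 9.63 and 0 FPKM in the flox/flox and 27.6, 18.3, 21.6 and 18.2 FPKM in the ASKO mice. Tmcc1 was at 1.16, 2.42, 1.02 and 1.89 FPKM in the flox/flox and 2.74, 3.81, 3.78 and 5.85 FPKM in the ASKO mice on chow, and its HFD values were 0, 2.81, 2.001 and 1.42 FPKM in the flox/flox and 3.37, 8.14, 8.04 and 6.96 FPKM in the ASKO mice. In the other 7, the direction turned with the diet.

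Tmem30a, the partner of the flippases that move phospholipids between membrane leaflets, was at 43.3, 44.2, 47.6 and 48.5 FPKM in the flox/flox mice and at 31.2, 22.6, 32.97 and 32.8 FPKM in the ASKO mice on chow. On HFD, it was at 33.8, 32.2, 39.3 and 25.7 FPKM in the flox/flox mice and at 55.5, 40.6, 58.5 and 40.7 FPKM in the ASKO mice, so the order of the genotypes was reversed. Gdi2, which recycles Rab GTPases, went the same way, from 74.2, 84.3, 92.7 and 78.9 FPKM in the flox/flox and 67.6, 56.9, 58.5 and 59.01 FPKM in the ASKO mice on chow to 69.1, 70.3, 60.3 and 85.6 FPKM in the flox/flox and 90.2, 103, 106 and 99.4 FPKM in the ASKO mice on HFD, and so did Cdadc1. Mfn1, a mitochondrial fusion protein, was higher in the ASKO mice on chow, with 5.77, 5.61, 5.08 and 6.25 FPKM in the flox/flox and 8.43, 10.3, 13.01 and 7.83 FPKM in the ASKO mice, and lower on HFD, with 9.35, 6.65, 9.42 and 7.12 FPKM in the flox/flox and 5.33, 6.59, 4.86 and 5.92 FPKM in the ASKO mice. Gdi2 overlaps Fam208b. Eme2, Lrrc47 and Loxl1 shared the pattern of Mfn1. The interaction of these 7 genes had adjusted p-values from 0.314 (Cdadc1) to 0.683 (Mfn1) by limma, so a difference between the diets was not shown for any of them.

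**Figure D5:**
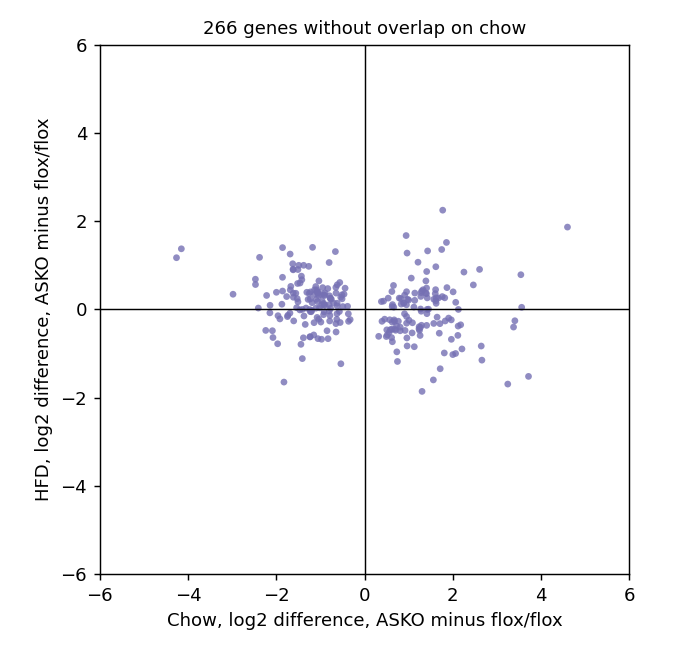
Log2 difference, ASKO minus flox/flox on log2(FPKM + 1), on chow (x axis) and on HFD (y axis), with 1 point for each of the 266 genes without overlap on chow. The points lie on both sides of 0 on HFD, and 108 of 266 have the same direction on both diets.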

How the data were processed

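RNA of gWAT from 16 mice was sequenced, and the authors used STAR to align trimmed reads to mm10 with GENCODE genes and Cufflinks to compute FPKM. The deposited table holds FPKM per gene and mouse, and its values were used as deposited. The GENCODE release, the library normalization of Cufflinks and the use of strand are not stated. Genes at 1 FPKM or more in at least 4 of the 8 chow mice were tested on log2(FPKM + 1) with limma 3.58.1 in R 4.3.3 (intensity trend, no robust estimation), with only these 8 mice in the fit and Benjamini-Hochberg adjustment. Limits were an adjusted p of 0.05 and an absolute log2 difference of 0.5, those of a figure legend of the authors, whose own Cuffdiff test starts from reads and was not repeated. The interaction used all 16 mice. Single values were tested with two-sided exact permutation tests over the 70 splits of the mice.

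Named genes were Mboat7, the 12 higher and 12 lower genes with the lowest limma p among genes without overlap and with a mean of at least 5 FPKM, Pla2g4a, Lpcat3, Lep, Adipoq, Cfd, Cd68, Itgax, Clec7a and Gpr55, in each list the most abundant gene and the genes without overlap or at an unadjusted p under 0.05, and the 8 genes with the highest loadings on each component. Members and lists were chosen with earlier results of these data known. Gene positions are those of the table, where overlapping genes share a locus, and overlaps are from GENCODE M21, which held 99.6% of the identifiers. Of 19373 entries, 22 names turned into dates were replaced and 20 repeated symbols were merged, which left 19353 genes. Fragments were estimated from the steps of low values in 1050 coding genes with 1 transcript of at least 1000 bases and no overlap. Alternatives were quantile normalization, a pseudocount of 0.1, a stricter filter (5 FPKM), no filter, upper-quartile scaling, rescaling to the sum without the 10 highest genes, all 16 mice in the fit, no intensity trend, robust estimation, array weights, no limit on the fold, the replicate number as a block, leaving out each mouse and, chosen after seeing the data, leaving out ASKO mice 0 and 2. For components, genes were also scaled to unit variance or restricted to the 500 most variable. Software beside R was Python 3.11.15 with numpy 2.4.6, pandas 2.3.3 and, for plots, matplotlib 3.10.9.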

Additional observations from a re-analysis of the deposited data

Results flagged for a closer look

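In 31 of 248 groups of 4 chow mice, 1 mouse lay far from the other 3 (by the gap to its nearest neighbour over the range of the group), where chance gives about 12, or 1 in 20, for values without steps. In 15 of the 31, the other 3 mice were listed at 0, which sets such a gap by itself, so the excess over chance cannot be read from these counts. In the flox/flox mice, mouse 1 had an FPKM sum of 772400 (the others 611900 to 636200), of which the 10 highest genes made up 41.95% (35.35% to 35.84% in the others). Genes high in 1 flox/flox mouse were Cd68 at 8.06 FPKM (the others 3.319 to 4.0), Tm2d2 at 19.8 (11.1 to 11.8), Cidec at 932 (452 to 518), Ctsa at 309 (249.7 to 258.5), Hbb-bs at 31.9 (7.07 to 7.70) and Upk1b at 11.7 (1.80 to 3.37), while Gamt was low at 12.5 (19.8 to 21.3). Genes above 0 in only 1 flox/flox mouse were Itgax at 0.723, Mcee at 3.99, Gm7393 at 4.98, Mt1 at 8.97, Msmo1 at 4.44, H2-T23 at 19.8, Pfkm at 4.16, Rpl38-ps2 at 44.8, Gm14706 at 149.7 and Crip1 at 14.9 FPKM. In the ASKO mice, genes above 0 in only 1 mouse were Itgax at 0.741, Gpr55 at 0.781, 2010107E04Rik at 12.5, Teddm2 at 1.76 and Gm16116 at 98.3 FPKM. Genes high in 1 ASKO mouse were Plin4 at 20.99 (12.6 to 13.8), Ctsa at 707 (344 to 395), Ccna2 at 192 (64.0 to 70.8), Mmp9 at 3.89 (1.15 to 1.21), Egfl7 at 23.3 (8.39 to 8.97) and Gm9806 at 141 FPKM (0 to 11.01), and Tspan5 was listed at 0 in 1 mouse (3.05 to 3.14). For Ctsa, Ccna2, Mmp9 and Egfl7, the high value was that of ASKO mouse 2.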

How the results depend on the processing

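The count of 5 genes past the limits stayed 5 with quantile normalization, array weights and no fold limit, came to 6 without the intensity trend, and fell to 2 with a pseudocount of 0.1, no filter, upper-quartile scaling, the sum without the 10 highest genes, robust estimation and without ASKO mice 0 and 2 (chosen after seeing the data), to 1 with all 16 mice and to 0 with a filter of 5 FPKM. The 1 gene was not among the 5, nor was 1 of the 2 without ASKO mice 0 and 2. Leaving out 1 mouse gave 0 to 3. Genes at an unadjusted p under 0.05 (408) were 168 with a filter of 5 FPKM, which tests 5727 genes, and 378 to 572 on leaving out 1 mouse. Genes without overlap (266) were 143 with that filter, 465 to 651 on leaving out 1 mouse and 1374 without ASKO mice 0 and 2, where fewer mice make separation easier by construction. Elsewhere the cause was not tested.

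Mboat7 kept its direction, from -1.50 to -0.85 on leaving out 1 mouse and -2.58 with a pseudocount of 0.1. The interaction gave 0 genes in each of 3 alternatives (limma, 631 to 668 at an unadjusted p under 0.05). Neither the first nor the second component, the ones tested, separated the genotypes. Lep turned to 0.18 without ASKO mouse 0 (-0.33 to 0.18 on leaving out 1 mouse) and 0.14 without ASKO mice 0 and 2. Cfd turned to -0.13 with quantile normalization, -0.01 with upper-quartile scaling and -0.08 with the sum without the 10 highest genes, and ran from -0.13 to 0.40 on leaving out 1 mouse. Of 60 gene results, 1104 values under alternatives kept side and direction, 71 changed side and 9 changed direction. Of the medians of 28 lists, 348 values moved by less than the spread between mice and 16 by more.

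The replicate block (numbers 0 to 3 of the titles) gave 0 genes past the limits by limma and 478 at an unadjusted p under 0.05. Deviations correlated by 0.173, 0.027, 0.038 and 0.051 between mice of a number, highest for the own number in 2 of 4, so the mice were not paired.

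Depth limits genes of few fragments, where 1 fragment decides between 0 and a value. In short transcripts this reaches higher FPKM.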

Other observations

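Genes near Mboat7 and near Adipoq were listed as values. The place of the Cre transgene in the genome was not looked at. Within 250000 bases of Mboat7, 11 genes were tested, 8 were higher and 3 lower in the ASKO mice, with a median of 0.32 and none without overlap. The lowest difference was that of Mboat7 itself, and the ribosomal protein gene Rps9 next to it was at 14.4, 86.3, 42.6 and 47.8 FPKM in the flox/flox mice and at 44.3, 76.3, 104 and 64.5 FPKM in the ASKO mice. Within 250000 bases of Adipoq, 8 genes were tested, 5 were higher and none was without overlap, with a median of 0.32. The pseudogene Gm15746, named after its values were seen, was at 0, 0, 3.15 and 0 FPKM in the flox/flox mice and at 14.1, 9.5, 11.4 and 2.99 FPKM in the ASKO mice (2.72 ± 0.66, limma, adjusted p = 0.638).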
